A study of Homo sapiens with 6 samples.

Results

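Acetylation of histone H3 at lysine 27 (H3K27ac) in gene deserts was described in T-cell acute lymphoblastic leukaemia (T-ALL) cells. Peaks of 3 H3K27ac libraries on chromosomes 1 to 22 and X were merged into union regions wherever they shared at least 1 base. A union region was placed in a gene desert when it lay outside every protein-coding gene body and at least 100 kb from both ends of every protein-coding gene in the RefSeq annotation of GRCh38.p14 (hg38). Of 49528 union regions, 2950 met this rule, or 5.96% (95% Clopper-Pearson interval 5.75 to 6.17), and the other 46578 did not. The region just inside the limit lay 100016 bp from a gene and the one just outside lay 99990 bp from one.

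The groups were 6T-CEM H3K27ac, with 1 library, and Jurkat H3K27ac, with 2 libraries; both are human T-ALL lines, each grown from a single patient's leukaemia. The 6 samples also included 3 IgG controls, which were not analysed here. The series title names the BET inhibitor GNE-987 and its description a 24 h treatment at 10 nM, but no sample label gives a treatment or genotype, so whether any library came from treated cells is not known. As 6T-CEM had a single library, its spread is unknown and no test between the lines was possible. Every difference below is therefore a description of these libraries, and nothing in the labels tells whether separate cultures gave the Jurkat replicates.

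H3K27ac is laid down by the acetyltransferases CBP and p300 and marks active promoters and enhancers. Enhancers can act over long distances by looping to their target promoters, and some that control T-cell genes lie far from any protein-coding gene. Clusters of strongly acetylated enhancers, often called super-enhancers, are rich in BET proteins, which bind acetylated histones.

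The list of 6T-CEM held 35154 peaks covering 34.3 Mb, that of Jurkat replicate 1 held 16159 peaks covering 16.2 Mb and that of replicate 2 held 32097 peaks covering 27.6 Mb. Read counts are not part of the lists, so the depth behind them is unknown. Intervals on shares cover counting error only. Of 9 T-lineage marker genes, peaks lay 1 kb or less from an end of 8 in 6T-CEM, and of 5 and 8 in the Jurkat replicates. The corresponding counts were 1, 1 and 1 of 4 B-lineage genes, 0, 0 and 0 of 4 erythroid genes and 1, 0 and 1 of 3 myeloid genes.

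The deserts are empty of protein-coding genes but not of annotated transcripts, and 76 of the 2950 regions (2.58%) overlapped the promoter window of a long non-coding RNA (lncRNA). The windows run from 250 bases before to 50 bases after an annotated start. The 6 promoters printed here lay under regions with peaks in all libraries. Each lies in a desert interval named below for its many regions or in a cluster named for its covered bases. They are RefSeq sequences of GRCh38.p14, written 5′ to 3′ on the strand of the lncRNA, with CpG dinucleotides in capitals. LOC107987207 (chr14:98205106-98205405, minus strand) lies in the desert beside BCL11B. NBAT1 (chr6:22147144-22147443, minus strand) was named as a neuroblastoma-associated transcript. DLEU2 (chr13:50125492-50125791, minus strand) was found in a segment deleted in lymphocytic leukaemia and hosts miRNA genes. MIR646HG (chr20:60138242-60138541, plus strand) hosts miR-646. LINC02273 (chr4:152100503-152100802, plus strand) and LINC02815 (chr1:229154676-229154975, minus strand) are intergenic lncRNAs.
LOC107987207: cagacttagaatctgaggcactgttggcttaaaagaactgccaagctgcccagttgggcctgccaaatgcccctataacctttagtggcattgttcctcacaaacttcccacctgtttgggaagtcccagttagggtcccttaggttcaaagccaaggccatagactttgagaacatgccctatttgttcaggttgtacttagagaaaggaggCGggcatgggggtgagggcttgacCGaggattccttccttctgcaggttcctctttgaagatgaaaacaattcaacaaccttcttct
NBAT1: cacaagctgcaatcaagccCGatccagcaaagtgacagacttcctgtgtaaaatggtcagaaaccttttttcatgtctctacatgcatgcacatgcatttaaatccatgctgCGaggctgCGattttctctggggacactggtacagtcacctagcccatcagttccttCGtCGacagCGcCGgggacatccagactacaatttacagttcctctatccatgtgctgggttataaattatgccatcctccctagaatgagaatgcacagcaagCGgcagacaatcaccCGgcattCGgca
DLEU2: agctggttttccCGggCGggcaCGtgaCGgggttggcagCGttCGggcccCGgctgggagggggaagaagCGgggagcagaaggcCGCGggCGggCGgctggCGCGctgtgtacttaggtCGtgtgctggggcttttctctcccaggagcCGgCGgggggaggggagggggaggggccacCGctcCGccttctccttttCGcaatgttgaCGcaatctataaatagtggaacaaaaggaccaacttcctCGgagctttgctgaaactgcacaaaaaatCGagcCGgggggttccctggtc
MIR646HG: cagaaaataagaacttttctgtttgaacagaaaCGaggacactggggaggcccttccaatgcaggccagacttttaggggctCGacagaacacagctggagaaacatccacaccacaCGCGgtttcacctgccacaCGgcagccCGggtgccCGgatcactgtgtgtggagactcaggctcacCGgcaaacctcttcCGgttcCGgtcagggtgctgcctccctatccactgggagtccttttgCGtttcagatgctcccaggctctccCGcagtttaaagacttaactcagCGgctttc
LINC02273: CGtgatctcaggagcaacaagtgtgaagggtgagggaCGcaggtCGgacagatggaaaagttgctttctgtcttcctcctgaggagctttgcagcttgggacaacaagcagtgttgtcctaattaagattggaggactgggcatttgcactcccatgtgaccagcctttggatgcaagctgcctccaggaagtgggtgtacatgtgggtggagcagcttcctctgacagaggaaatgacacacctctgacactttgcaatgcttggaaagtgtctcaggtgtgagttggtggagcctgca
LINC02815: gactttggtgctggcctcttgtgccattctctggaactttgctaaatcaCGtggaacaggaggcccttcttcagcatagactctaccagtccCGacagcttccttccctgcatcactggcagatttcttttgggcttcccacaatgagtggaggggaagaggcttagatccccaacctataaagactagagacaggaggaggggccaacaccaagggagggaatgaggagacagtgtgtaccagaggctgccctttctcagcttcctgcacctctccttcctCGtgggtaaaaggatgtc
The promoters ranged widely in CpG content, from 24 CpG in DLEU2, 13 in MIR646HG and 10 in NBAT1 to 3 in LINC02273, 3 in LINC02815 and 2 in LOC107987207. The highest fold enrichment of a peak in the region over LOC107987207 was 23.5 in 6T-CEM, against 10.7 and 12.6 in Jurkat replicates 1 and 2. The region over NBAT1 had a fold of 15 in 6T-CEM, against 8.12 and 5.27 in the Jurkat replicates. DLEU2 lay under a fold of 17.9 in 6T-CEM, against 4.27 and 7.35. These values are the authors' peak folds, each set within its own library, so they rank peaks within a list and are not levels on a common scale. The other promoters had lower folds in 6T-CEM, though not throughout in Jurkat, at 5.86, 3.6 and 7.61 for MIR646HG, 9.38, 8.4 and 4.29 for LINC02273 and 6.1, 7.81 and 3.33 for LINC02815, in the order 6T-CEM, Jurkat replicate 1 and replicate 2.

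In all, the deserts held 2907 lncRNA promoter windows, of which 90, from 81 genes, lay under a region (3.1%, interval 2.5 to 3.79). Of these 90 windows, 31 lay under a region with peaks in all libraries (34.4%, 24.7 to 45.2), whereas 9.93% of all desert regions (8.88 to 11.1) had such peaks. Several windows can share a region: of the 76 regions with a window, 25 had peaks in all libraries (32.9%, 22.5 to 44.6). These 76 regions were wide, with a median of 1184.5 bp, against 573 bp for all desert regions, and the part of width in this difference was not tested. A further 18 windows (20%, 12.3 to 29.8) lay under a region found in 6T-CEM only and 6 (6.67%, 2.49 to 13.9) under one found in both Jurkat libraries and not in 6T-CEM. Windows under a region had a median of 6 CpG and 52.3% GC. The 2817 desert windows under no region had 2 CpG and 42.3% GC, and all 34961 promoters in the table had 14 CpG and 58.7% GC.

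Short motifs were searched on both strands of these 300-base windows; none of those named contains another. The ETS core CCGGAA occurred in 14.4% of windows under a region, against 4.19% of desert windows under none and 17.3% of all promoters. The E-box CAGNTG, bound by factors such as TAL1 with its partners, occurred in 65.6%, against 52.2% and 49.9%. The GATA motif AGATAA was found in 10%, against 21.8% and 10.3%, the RUNX motif TGTGGT in 13.3%, against 18.6% and 13.1%, and the TATA motif TATAAA in 12.2%, against 24.8% and 11.5%. CCAAT occurred in 41.1%, against 39.5% and 34.6%. For ETS, GATA, RUNX and TATA the windows under a region were thus closer to all promoters than to other desert windows. Base composition differs between the sets, and its part in the motif shares was not tested.

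**Figure D1:**
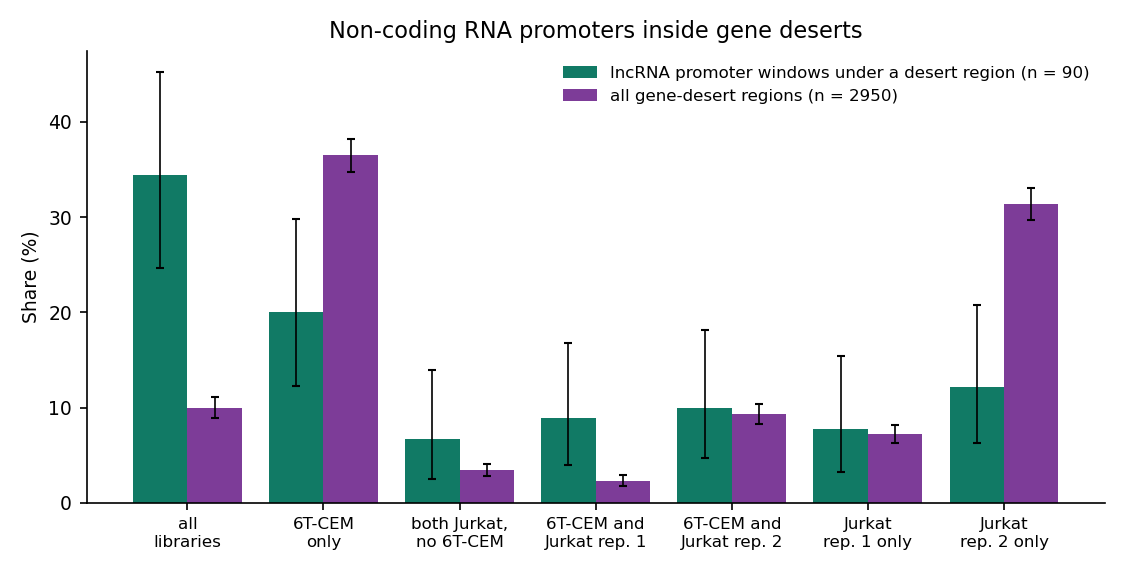
Share of lncRNA promoter windows under a gene-desert region (green, n = 90) and of all gene-desert regions (purple, n = 2950) by the libraries with a peak in the region, in percent. Error bars are 95% Clopper-Pearson intervals; 34.4% of the windows and 9.93% of the regions fell in the class with peaks of all libraries.

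Of the 4 miRNA genes under desert regions, 1 lay under a region with peaks in all libraries, and 2 lay under regions of Jurkat replicate 2 only. MIR4437, on chromosome 2 between UBE2E3, a ubiquitin-conjugating enzyme gene, and ITGA4, an integrin gene of lymphocyte homing, lay under a region with a fold of 11.4 in 6T-CEM, against 7.46 and 10.7 in the Jurkat replicates. MIR646, on chromosome 20 within MIR646HG, lay under a region with a fold of 3.55 in 6T-CEM and 4.24 in Jurkat replicate 2 and no peak in replicate 1. The mature RefSeq sequences of these members are shown to identify them, with the seed, bases 2 to 8, in capitals, and their seeds differ.
hsa-miR-4437: uGGGCUCAggguacaaagguu
hsa-miR-646: aAGCAGCUgccucugaggc
The lists measure acetylation of the underlying DNA, and no expression of either miRNA was measured here.

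Most desert regions were found in 1 library. Of the 2950 regions, 1712 held a 6T-CEM peak, 673 a Jurkat replicate 1 peak and 1594 a replicate 2 peak, and 2214 (75.1%, 73.4 to 76.6) had a peak in a single library, against 61.5% of all union regions. Peaks of all libraries lay in 293 regions (9.93%), against 17.4% of all union regions. A 6T-CEM peak alone lay in 1076 regions (36.5%, 34.7 to 38.2), against 32.2% of all union regions. Peaks of both Jurkat libraries without 6T-CEM lay in 100 regions (3.39%, 2.77 to 4.11), close to the 3.20% of all union regions. The largest remaining class was 926 regions (31.4%, 29.7 to 33.1) of Jurkat replicate 2 alone, against 23.9% of all union regions, and 212 (7.19%), against 5.39%, were found in replicate 1 alone.

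The lower share of regions common to all libraries was close to that of other regions away from gene ends. Outside deserts, 10445 union regions lay within 1 kb of a protein-coding gene end, and 42.4% of them (41.4 to 43.3) had peaks in all libraries. The 36133 that lay farther from gene ends had such peaks in 10.8% (10.5 to 11.1), an interval that overlaps that of the desert regions. The same held for regions of 6T-CEM alone, at 36.5% in deserts, 35.9% (35.4 to 36.4) away from gene ends and 18.3% (17.5 to 19) near them. Widths were also alike, with medians of 573 bp for desert regions and 588 bp for the others away from gene ends. In these classes, desert regions therefore stood beside the other regions away from gene ends and apart from those near them.

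**Figure D2:**
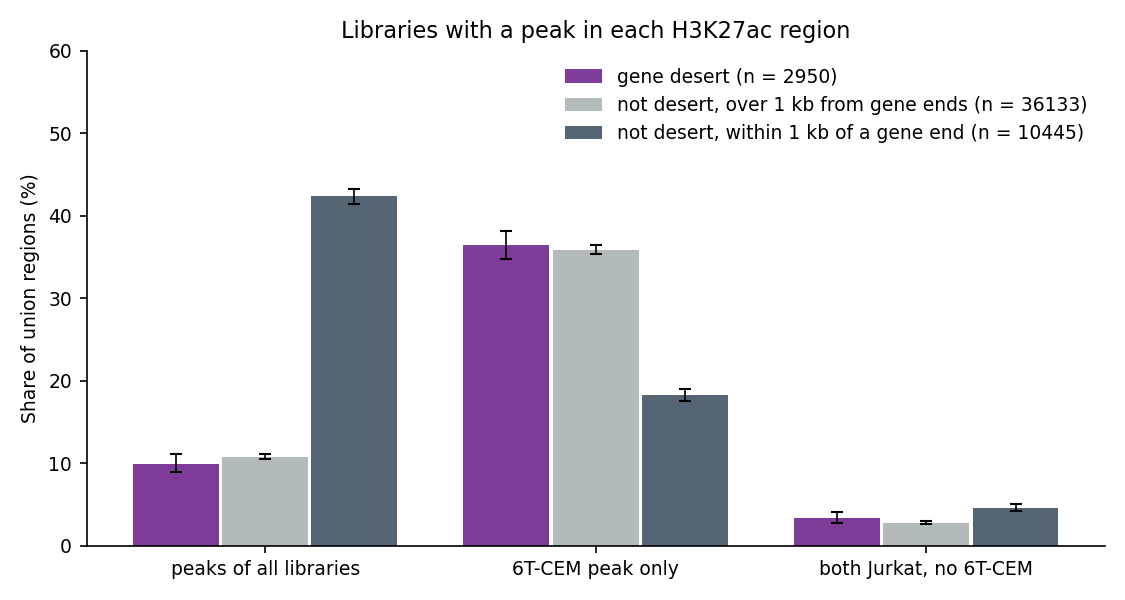
Share of union regions, in percent, with peaks of all libraries, of 6T-CEM only, or of both Jurkat libraries without 6T-CEM, for gene deserts (purple), for other regions over 1 kb from gene ends (light grey) and for other regions within 1 kb of a gene end (dark grey). Error bars are 95% Clopper-Pearson intervals; desert regions and the light grey set lie within 1 percentage point of each other in every class.

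Peak by peak, desert peaks were matched less often in most pairs of libraries, but not in all. Of the desert peaks of 6T-CEM, 23.2% (21.3 to 25.2) overlapped a peak of Jurkat replicate 1 and 35.5% (33.3 to 37.8) one of replicate 2. For other 6T-CEM peaks away from gene ends these shares were 20.5% (20 to 21.1) and 44.4% (43.8 to 45.1). Taken over all folds, desert peaks of 6T-CEM were therefore matched slightly more often by replicate 1 and less often by replicate 2. By quartile of fold, low to high, replicate 1 matched 11%, 11.5%, 18.3% and 37.6% of them. Away from gene ends it matched 11%, 13.9%, 19.2% and 37.7%, so the excess was not seen within quartiles. Of the Jurkat replicate 1 desert peaks, 54.4% (50.7 to 58.1) overlapped 6T-CEM and 59.9% (56.3 to 63.5) overlapped replicate 2, against 65.8% (64.7 to 66.8) and 71.2% (70.2 to 72.2) away from gene ends. Replicate 2 desert peaks overlapped 6T-CEM in 39.1% (36.8 to 41.4) and replicate 1 in 27.9% (25.7 to 30.1), against 51.1% (50.4 to 51.7) and 24.6% (24.1 to 25.2). Replicate 2 desert peaks were thus matched more often by the longer 6T-CEM list than by the other Jurkat list.

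Sharing varied with the strength of a peak, in a way that depended on the pair of libraries. Desert peaks of 6T-CEM in the lowest quartile of folds of that list overlapped Jurkat replicate 1 in 11% (7.74 to 15) and those in the highest quartile in 37.6% (33.9 to 41.3), the same course as in peaks away from gene ends (11% and 37.7%). Against Jurkat replicate 2 the shares of 6T-CEM desert peaks were 37.2%, 32.6%, 30.1% and 39.7% over the 4 quartiles, low to high, with no steady course. For Jurkat replicate 1 against replicate 2 they were 57.1%, 52.7% and 56.4% in the lower 3 quartiles and 70.7% (64.1 to 76.7) in the highest, against 82.5% away from gene ends in the highest. Over the 24 combinations of list, partner and fold quartile, the desert share was lower than that of all other peaks in 24 and its interval lay below in 23. Against peaks away from gene ends it was lower in 22, with the interval below in 14 and above in 1.

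**Figure D3:**
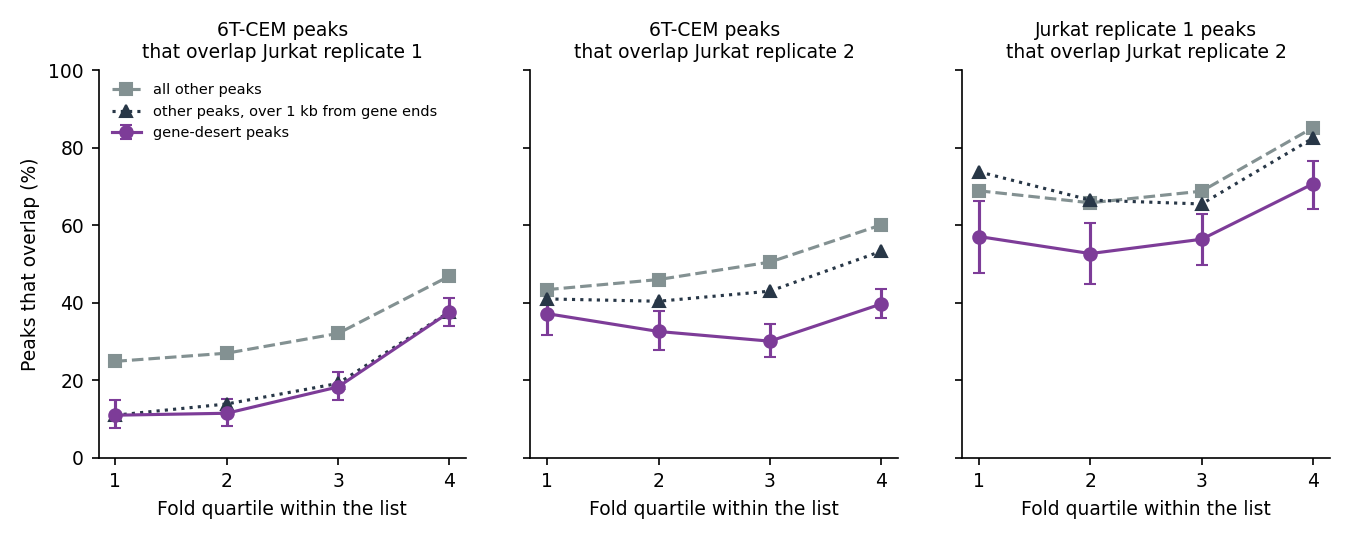
Share of peaks, in percent, that overlap a peak of the named library, by quartile of the fold within the list (1 lowest, 4 highest), for gene-desert peaks (purple, with 95% Clopper-Pearson intervals), all other peaks (grey squares) and other peaks over 1 kb from gene ends (dark triangles). In the left panel desert peaks follow the triangles, from 11% to 37.6%; in the middle and right panels they lie below them.

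Desert peaks had somewhat higher folds than other peaks of their list. Their median fold was 5.48 in 6T-CEM, against 4.63 for other 6T-CEM peaks and 4.69 for those away from gene ends. In Jurkat replicate 1 it was 5.56, against 5.17 and 4.98, and in replicate 2 it was 4.5, against 4.31 and 4.34. In the same order of lists, the median −log10 q was 9.11, 6.35 and 6.91, against 8.3, 6.66 and 7.05 for all other peaks. Away from gene ends it was 7.66, 5.66 and 6.69. Median widths were 578.5, 715 and 536 bp, against 653, 766 and 586 bp for all other peaks. Away from gene ends they were 591, 639 and 547 bp. Desert peaks thus had higher folds but were narrower than all other peaks. The highest desert folds were 34.5, 20.2 and 22.8 in 6T-CEM, Jurkat replicate 1 and replicate 2. In the 293 regions shared by all libraries, the median of the highest fold was 7.49, 6.34 and 6.66, against 6.1, 5.3 and 5.57 in 3901 shared regions away from gene ends. Shared desert regions were wide, with a median of 1866 bp, against 1762 bp for shared regions away from gene ends. Desert regions of a single library had medians of 496 bp (6T-CEM), 525 bp (Jurkat replicate 1) and 465.5 bp (replicate 2). A union region spans all of its joined peaks, so shared regions tend to be wider by construction. In shared desert regions, summits of 6T-CEM lay within 500 bp of those of Jurkat replicates 1 and 2 in 82.9% and 81.2%. Between the Jurkat replicates the share was 72.7%. In shared regions away from gene ends these shares were 76.9%, 78.9% and 75.2%, and in all other shared regions 80.4%, 82% and 79.5%. Close summits were thus not particular to deserts.

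The regions named in this paragraph and the next were picked among desert regions only, by the lowest of their folds over the libraries. Whether such regions lie beside genes of lymphocytes more often than other desert regions was not tested. The region at chr1:199027591-199033956, in LINC01221 and 270.1 kb from PTPRC, which encodes the CD45 phosphatase of all leukocytes, had folds of 18.9 in 6T-CEM, against 13.7 and 13.5 in Jurkat replicates 1 and 2. The region at chr8:129176341-129181401, between the growth-promoting transcription factor gene MYC and the gasdermin gene GSDMC, had folds of 19.9, against 14 and 13.1. A NOTCH-bound enhancer far downstream of MYC is known in T-ALL, and which region holds it was not tested. A second region of that desert, at chr8:129376667-129378915 in the lncRNA CCDC26, had 15, against 11.3 and 11.4. These regions carried strong peaks in every library, and the order of the folds between libraries cannot be read as an order of acetylation.

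Further regions of this kind lay in other deserts. The highest fold in any desert belonged to chr2:60093796-60102302, an 8507 bp region between FANCL, a Fanconi anaemia ubiquitin ligase gene, and the predicted gene LOC124906010, 299.9 kb from the nearer of them, with 34.5 in 6T-CEM, against 16 and 11.4 in Jurkat. The region at chr3:31224309-31227846, between GADL1 and STT3B, an oligosaccharyltransferase gene, had 19.3, against 18.4 and 12. Between CD83, an activation marker of dendritic and lymphoid cells, and JARID2, which encodes a Polycomb cofactor, lay chr6:14909887-14911905 with 20.1, against 12.5 and 18.1, and chr6:14447564-14457671 with 17.9, against 15 and 12.5. The region at chr6:14447564-14457671 was the widest desert region, at 10108 bp. In the lncRNA CASC15, on the side of SOX4, a progenitor transcription factor gene, chr6:22023393-22026641 had 12.4 in 6T-CEM, against 11.2 and 22.

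Further wide regions differed in how they were covered. At chr14:98166771-98176608, 992.7 kb from BCL11B and 9838 bp wide, peaks covered 8340 bp in 6T-CEM with a fold of 30.1, against 9778 bp with 6.4 and 7369 bp with 12.5 in Jurkat replicates 1 and 2. At chr3:17979760-17988559, in the lncRNA BALR6, between TBC1D5 and SATB1, a chromatin organiser gene of thymocytes, and 237.1 kb from the nearer of them, they covered 4421 bp in 6T-CEM (fold 20.2), against 8755 bp (6.81) and 3779 bp (18.2). At chr20:57832805-57841965, 121.3 kb from PMEPA1, a regulator of TGF-beta signalling, 6T-CEM had no peak, against 7634 bp (7.96) and 9161 bp (7.77). The first 2 of these wide regions were covered in every library, and the third in Jurkat alone.

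Regions were gathered in a few deserts. Eligible desert sequence made up 949.5 Mb, or 31.4% of the span from the first to the last gene of each chromosome, and held 2.9 regions per Mb, against 22.4 per Mb in the rest of that span. Of 1650 intervals between neighbouring protein-coding genes with room for a desert region, 424 held one (25.7%), and with chromosome ends 433 intervals did. The 12 intervals with most regions held 1017 of them (34.5%), while 146 intervals held 1 region. By chromosome, most regions lay on chromosomes 2 (383), 20 (335), 14 (323) and 6 (281), and fewest on the gene-dense chromosome 19 (12). As a share of each chromosome's union regions, chromosome 14 was highest (17.2%), then 20 (14%), 13 (13.5%), 6 (13%) and 2 (11.8%). Chromosome 19 was lowest (0.415%).

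In the intervals, the bases covered by peaks were compared between the lines as a log2 ratio of 6T-CEM to the Jurkat mean, with 500 bp added to each and centred on the median of all desert intervals and gene windows. 6T-CEM lay above both Jurkat libraries in 242 of 433 desert intervals (55.9%), against 50.4% of all intervals and gene windows. It lay below both in 42 (9.7%), against 15.6%. Below both needs peaks in both Jurkat lists, whereas above both can rest on 6T-CEM peaks alone, so these counts are uneven. The part of intervals without Jurkat peaks in the differences from all intervals and gene windows was not tested. The median centred log2 ratio was 0.36, with an SD of 1.42 over intervals, and that of Jurkat replicate 1 over 2 was 0.05, with an SD of 1.14. Among the 62 intervals with at least 10 regions, 26 lay above both, 16 below both, and the median was −0.18. The lean towards 6T-CEM over all deserts was thus not seen in the densely marked ones. With every list cut to the length of the shortest, 16159 peaks, by −log10 q, 6T-CEM lay above both Jurkat libraries in 162 of 325 desert intervals (49.8%), against 37.7% of all intervals and gene windows, and below both in 51 (15.7%), against 24.1%. Against Jurkat replicate 2 alone it lay above in 61.9% of desert intervals and in 64% of all intervals and gene windows. By this count the excess was not seen there, but the median centred log2 ratio against that library was 0.39. The median of 0.36 was 0.59 against Jurkat replicate 1 alone and 0.05 with 2000 bp added in place of 500.

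The interval with most regions was the end of chromosome 14 beyond TMEM121, which is the immunoglobulin heavy chain locus (IGH), whose segments RefSeq does not annotate as protein-coding. It held 161 regions, 22 with peaks in all libraries and 99 with a 6T-CEM peak only. Peaks covered 140943 bp in 6T-CEM, against 41572 bp and 52897 bp in Jurkat replicates 1 and 2. The centred log2 ratio was 1.26, compared with −0.29 for Jurkat replicate 1 over 2. The 5 regions farthest from any protein-coding gene with peaks in all libraries all lay here, 1231.4 to 1343.9 kb from TMEM121. The region at chr14:106765065-106768640 was the strongest of these in Jurkat replicate 1, with folds of 19.5 in 6T-CEM, against 16 and 6.56 in the Jurkat replicates.

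Within IGH, 160 desert regions lay in the annotated locus and 83 of them overlapped a gene segment. Its clusters differed by library: the one at chr14:106761614-106775931, among variable segments, held 10289 bp in 6T-CEM, against 6880 bp and 4082 bp. The one at chr14:105879589-105927986, over the diversity segments, held 7740 bp in 6T-CEM, against 2148 bp and 26885 bp. It was the only named IGH cluster in which a Jurkat library had more covered bases than 6T-CEM.

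The T-cell receptor loci held few desert regions. TRB, the beta chain locus, had 14, with 0 bp in 6T-CEM, against 6528 bp and 6339 bp in Jurkat, and TRA, the alpha chain locus, had 6, with 1923 bp in 6T-CEM, against 2991 bp and 2092 bp. Over the whole TRB locus, desert or not, peaks covered 34363 bp in 6T-CEM, against 32741 bp and 28368 bp, so over the whole TRB locus the libraries stood closer together. The whole TRA locus had 4311 bp in 6T-CEM, against 18117 bp and 10212 bp. IGK, the kappa chain locus, had 3 desert regions, and IGL, TRD and TRG had 0.

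The desert between VRK1, a kinase gene, and BCL11B, a transcription factor gene needed for commitment to the T lineage, held 108 regions. Peaks covered 82997 bp in 6T-CEM, against 42954 bp and 55341 bp in Jurkat, and 21 regions had peaks in all libraries. The centred log2 ratio was 0.44 and that of Jurkat replicate 1 over 2 was −0.31. The cluster of this desert with most covered bases spanned 85.1 kb, chr14:98155588-98240736. It begins 928.5 kb from BCL11B and holds the LOC107987207 promoter printed above. This cluster had 30 regions, 14 of them in all libraries, and covered 39815 bp in 6T-CEM, against 35439 bp and 27194 bp. By the sum of peak width times fold it ranked 1 among the desert clusters of 6T-CEM and 3 among those of each Jurkat replicate. The libraries were closer to each other inside this cluster than over the whole desert, in which 47 regions had a 6T-CEM peak only.

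**Figure D4:**
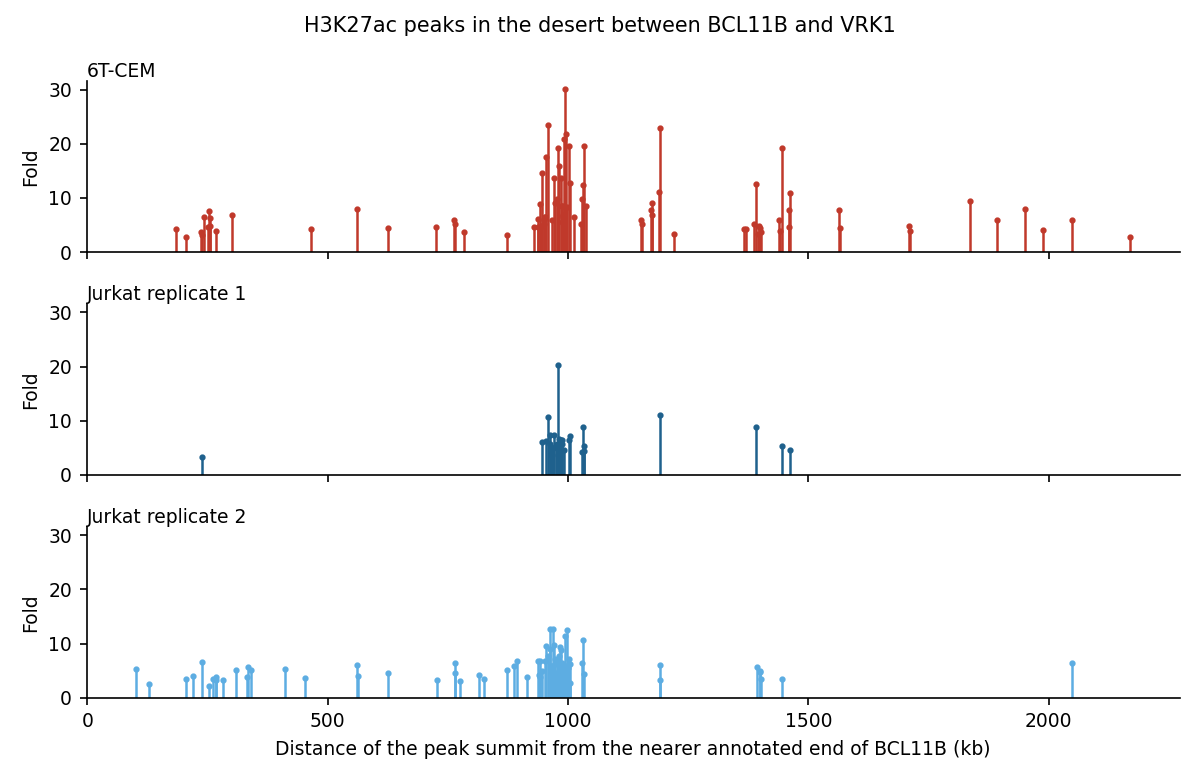
Peaks in the desert between BCL11B and VRK1: distance of each peak summit from the nearer annotated end of BCL11B in kb (horizontal) and the authors' peak fold (vertical), with 1 row per library, 6T-CEM at the top. In every row the tallest peak lies in the cluster that begins 928.5 kb from BCL11B, where folds reach 30.1 in 6T-CEM, against 20.2 and 12.6 in Jurkat replicates 1 and 2.

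The largest cluster spanned 180.4 kb between the cadherin genes CDH26 and CDH4, at chr20:60192765-60373174 over MIR646HG. Its 65 regions covered 49482 bp in 6T-CEM, against 29347 bp and 75706 bp in the Jurkat replicates, with ranks of 2, 5 and 1. Over the whole interval, with 128 regions, the values were 60664 bp in 6T-CEM, against 38917 bp and 115494 bp. 6T-CEM lay between the Jurkat libraries, whose own log2 ratio of −1.51 was larger in size than the ratio of −0.65 between the lines.

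Several large deserts leaned to Jurkat in both libraries. CD83 to JARID2 held 118 regions, with 47633 bp in 6T-CEM, against 55762 bp and 73969 bp. MYC to GSDMC held 96, with 26033 bp, against 72292 bp and 37533 bp. The predicted gene LOC124901483, beside SOX4, to PRL, the prolactin gene, held 76, with 26457 bp, against 56695 bp and 33602 bp. The centred log2 ratios were −0.75, −1.37 and −1.06, while those of Jurkat replicate 1 over 2 were −0.35, 0.99 and 0.80. In the deserts of MYC and of SOX4, the Jurkat replicates thus differed from each other nearly as much as the lines did. Between HDAC4, a histone deacetylase gene, and NDUFA10, a complex I subunit gene, 58 regions covered 8485 bp in 6T-CEM, against 20176 bp and 59955 bp, a ratio of −2.48 with −1.50 between the replicates. All 4 deserts lay below both Jurkat libraries in 6T-CEM.

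The desert between PMEPA1 and CIMIP1 on chromosome 20 had no 6T-CEM peak at all. Its 47 regions covered 0 bp in 6T-CEM, against 16918 bp and 48780 bp in the Jurkat replicates. It lies within a stretch of 815.7 kb without any 6T-CEM peak, in which the Jurkat lists held 24 and 105 peaks. Whether this DNA is present in 6T-CEM was not tested, as the lists give no read counts outside peaks.

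Other deserts leaned to 6T-CEM. KCNRG, a potassium channel regulator gene, to DLEU7 on chromosome 13 held 51 regions, 43 of them in 6T-CEM only, with 37311 bp in 6T-CEM, against 4974 bp and 5608 bp. This desert holds the DLEU2 promoter printed above, and the Jurkat replicates were close to each other there, with a log2 ratio of −0.11, against 2.40 between the lines. HS6ST1, a heparan sulfate sulfotransferase gene, to the Rab GTPase gene RAB6C held 72 regions, with 65075 bp in 6T-CEM, against 4224 bp and 32061 bp. There the ratio of Jurkat replicate 1 over 2, −2.74, was larger in size than the 1.51 between the lines.

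In the remaining named deserts the Jurkat libraries lay on both sides of 6T-CEM. RHOU, a small GTPase gene, to RAB4A, a gene of endosome traffic, held 59 regions, with 33350 bp in 6T-CEM, against 26256 bp and 43626 bp. Its main cluster, chr1:229087761-229156123 over LINC02815, was nearly equal in the libraries, with 17261 bp in 6T-CEM, against 17778 bp and 17349 bp. PTPRC to the nuclear receptor gene NR5A2 held 43 regions, with 18993 bp in 6T-CEM, against 58239 bp and 10501 bp, and the ratio of Jurkat replicate 1 over 2 was 2.47.

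**Figure D5:**
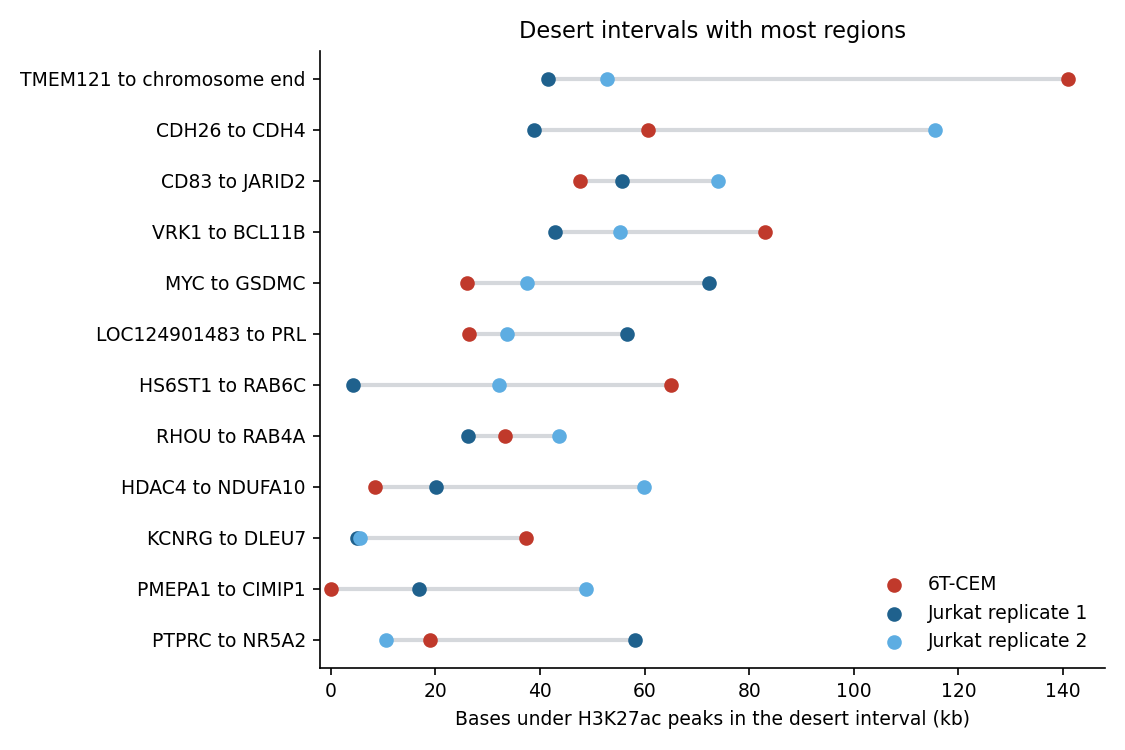
Bases under H3K27ac peaks, in kb, in the 12 gene-desert intervals with most regions, ordered by number of regions, for 6T-CEM (red), Jurkat replicate 1 (dark blue) and Jurkat replicate 2 (light blue). 6T-CEM lies outside the Jurkat values in 9 intervals, above them beyond TMEM121, from VRK1 to BCL11B, from HS6ST1 to RAB6C and from KCNRG to DLEU7, and the Jurkat replicates lie far apart in several.

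Regions 10 kb or less apart formed 1122 clusters, of which 655 were a single region and 47 held 10 or more. Peaks of all libraries lay in 163 clusters, 6T-CEM peaks alone in 424 and peaks of both Jurkat libraries without 6T-CEM in 46. The last 2 counts do not compare the lines evenly, since the first needs peaks in 1 list and the second in both shorter ones. Peaks of at least 1 Jurkat library without 6T-CEM lay in 374 clusters. Clusters were formed from desert regions only. No share over clusters of all union regions stands beside these counts, so they are not read as high or low. Besides those above, the clusters with most covered bases on average over the libraries lay between GATB and FBXW7, a ubiquitin ligase gene often mutated in T-ALL, at chr4:152065139-152119357, with 21252 bp in 6T-CEM, against 9751 bp and 11158 bp. Another lay between the homeobox gene IRX1 and ADAMTS16, a metalloprotease gene, at chr5:4523127-4556488, with 5449 bp, against 18433 bp and 15801 bp. In both of these clusters the Jurkat replicates were closer to each other than to 6T-CEM.

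Clusters near HDAC4, CASC15, CD83 and PTPRC showed how far the replicates could differ. The HDAC4 cluster, chr2:239501995-239640737, had 7769 bp in 6T-CEM, against 19590 bp and 49150 bp, with ranks of 83, 11 and 2. The PTPRC cluster, chr1:199007528-199056715, had 5951 bp in 6T-CEM, against 29120 bp and 4509 bp, with ranks of 37, 1 and 30. The CASC15 cluster, chr6:21965738-22088796, had 10718 bp, against 34844 bp and 16284 bp. The top rank of the PTPRC cluster was thus a feature of Jurkat replicate 1 and was not repeated in replicate 2. The clusters at chr6:14240973-14355463 and chr6:14430644-14489014, beside CD83, had 11171 bp and 9361 bp in 6T-CEM, against 16888 bp and 19986 bp in replicate 1 and 25801 bp and 15748 bp in replicate 2.

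Of the clusters with 6T-CEM peaks alone, the one with most covered bases, 10721 bp, lay between TAFA5 and BRD1, a bromodomain gene, at chr22:49566668-49601671 in MIR3667HG. A second in the same desert held 4042 bp, and both lie in a stretch of 236.8 kb in which 6T-CEM had 18 peaks and Jurkat none. PRKCQ, which encodes a kinase of T-cell receptor signalling, to SFMBT2 held 8121 bp at chr10:6954860-7004238, in a stretch of 323.1 kb without Jurkat peaks. The stretch around the cluster between PCDH17 and DIAPH3 on chromosome 13 was longest, at 7505.3 kb with 13 6T-CEM peaks, and the cluster held 5324 bp. A further 3 held 4902 to 8010 bp, between MYT1L and EIPR1, SYT15 and PTPN20, and KCNRG and DLEU7. These clusters were small beside the shared ones, and the highest of them ranked 40 in 6T-CEM.

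Of the clusters with peaks of both Jurkat libraries and none of 6T-CEM, those beside PMEPA1 were largest, at chr20:57813092-57860706 with 11761 bp and 20789 bp in replicates 1 and 2, and at chr20:57871311-57953600 with 5157 bp and 22300 bp. BUB3, a spindle checkpoint gene, to the receptor gene GPR26 held 3279 bp and 11434 bp at chr10:123511848-123563761, in LINC02641. GGTLC1 to SYNDIG1 held 3106 bp and 12812 bp at chr20:24134316-24153877. All 4 had more covered bases in replicate 2. The other 4 held 1761 to 2384 bp in replicate 1 and 2631 to 6934 bp in replicate 2, beside RHOU, beyond B3GAT1 at the end of chromosome 11, between TFAP2C and BMP7, and between HS3ST3B1 and PMP22. Of these 8 clusters, 4 lie on chromosome 20, and all lie in stretches of at least 200.9 kb without a 6T-CEM peak.

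A list of 30 genes with known or likely distant enhancers in T cells was read against the deserts they border. For 15 of them the bordering desert held regions, 351 in all. 6T-CEM lay above both Jurkat libraries at 8 (53.3%) and below both at 1 (6.67%). These shares were 50.4% and 15.6% over all intervals and gene windows, and below both again needs peaks in both Jurkat lists. After BCL11B, MYC and PTPRC, SATB1 had most, with 35 regions and 18206 bp in 6T-CEM, against 27966 bp and 16012 bp. GATA3, whose product directs early T-cell development, had 18 regions, 15 of them in 6T-CEM only, and 11008 bp in 6T-CEM, against 1930 bp and 1143 bp. ETS1, a lymphoid transcription factor gene, had 13 regions and 8903 bp, against 1885 bp and 3123 bp. The deserts of GATA3 and ETS1 were thus more widely covered in 6T-CEM than in either Jurkat library.

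Smaller numbers lay beside the other genes of that list. MEF2C, an early lymphoid factor gene, and IKZF2, the Helios gene, had 3 regions each in 6T-CEM only, with 2507 bp and 1379 bp, against 0 bp in both Jurkat libraries. ETV6, an ETS repressor gene, had 4031 bp in 6T-CEM, against 617 bp and 356 bp, and ID2, an inhibitor of E proteins, 1658 bp, against 395 bp and 3793 bp. TOX, a thymocyte differentiation factor gene, had 1754 bp, against 846 bp and 0 bp. RUNX3, BACH2, BCL6 and RUNX1 had 2 to 5 regions each. The other 15 genes, among them TAL1, MYB, LMO2, IKZF1 and CDK6, bordered no desert region. SOX4 is 1 of these 15, because the predicted gene LOC124901483 stands between it and the CASC15 desert.

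In annotation, 1159 desert regions (39.3%, 37.5 to 41.1) overlapped an lncRNA body, 102 (3.46%) a pseudogene, 97 (3.29%) an antigen receptor segment and 1551 (52.6%, 50.8 to 54.4) no annotated gene. The share of desert sequence in lncRNA bodies is not given here, so 39.3% is not read as high or low. Peaks of all libraries were found in 12.9% (11 to 14.9) of the regions in lncRNA bodies and 7.93% (6.63 to 9.39) of those in no gene. The part of region width in this difference was not tested. The lncRNA with most regions was CASC15, with 76, covering 26457 bp in 6T-CEM, against 56695 bp and 33602 bp in Jurkat. MIR646HG had 52 regions with 45330 bp, against 28868 bp and 64647 bp, and DLEU1, the neighbour of DLEU2, had 43 with 31534 bp, against 4538 bp and 5126 bp. Both CASC15 and DLEU1 had 6T-CEM outside the range of the Jurkat libraries, on opposite sides.

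Other lncRNAs were covered unevenly by the libraries. PVT1, the neighbour of MYC, had 30 desert regions with 1402 bp in 6T-CEM, against 0 bp and 16170 bp, and CCDC26, farther along the same desert, had 25 with 10293 bp, against 28869 bp and 9842 bp. The Jurkat replicates thus differed within the MYC desert itself, with replicate 2 marked at PVT1 and replicate 1 more widely at CCDC26. BALR6, beside SATB1, had 26 regions with 12247 bp, against 19722 bp and 12021 bp. LOC105373611, beside HS6ST1, had 41 regions with 34147 bp in 6T-CEM, against 0 bp and 20752 bp.

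Distance from genes ran to 4655.9 kb, with a median of 205.0 kb and quartiles of 144.5 and 332.7 kb. The share of regions with a 6T-CEM peak only was 32.9%, 34.3%, 32.5% and 33% at 100 to 150, 150 to 200, 200 to 300 and 300 to 500 kb. It was 51.8% of 332 regions (46.3 to 57.3) at 500 to 1000 kb and 63.6% of 118 regions (54.2 to 72.2) at 1000 kb or more. Without the IGH locus the last shares were 44.7% of 255 regions (38.5 to 51) and 62.7% of 67 (50 to 74.2). Peaks of all libraries lay in 8.23%, 6.9%, 12.6%, 9.67%, 13.6% and 13.6% of regions over the 6 distance classes, with no steady course. Without the IGH locus the share was 14.1% (10.1 to 19) at 500 to 1000 kb and 7.46% (2.47 to 16.6) at 1000 kb or more. Regions of 1 desert lie at similar distances, so they are not independent of each other.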

How the data were processed

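H3K27ac peak lists of 6T-CEM (1 library) and Jurkat (2 libraries) were used, 1 list per library and not pooled, per the names in the deposited lists. The submitters' processing notes name build hg38, MACS2 2.2.7 and Bowtie2 2.2.5. Options, and whether IgG served as control, are not given in the sources used here. CUT&Tag is named by the series text, but sonicated nuclei by the labels' protocol. For each peak the authors deposited a fold enrichment (a ratio over background), −log10 p-values and −log10 q-values, a score (10 times the −log10 q, cut to a whole number) and the summit offset. Deposited −log10 q values began at 2.01, 2.01 and 2 for 6T-CEM, Jurkat replicate 1 and replicate 2. The lists give no counts, so depth is unknown.

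Peaks sharing at least 1 base formed union regions. Gene positions came from 19974 protein-coding entries of the RefSeq GRCh38.p14 table, which carries no strand, so both ends of each gene were used. Covered bases were compared per interval between neighbouring genes as log2 of 6T-CEM over the Jurkat mean with 500 bp added, and centred by subtracting 0.31 (Jurkat replicate 1 over 2, −0.05), the median over intervals and gene windows with flanks of 25 kb. Clusters joined regions 10 kb or less apart. lncRNA promoters (250 bases before to 50 after a start) and miRNAs were matched by position to the RefSeq tables; in 3021 of 3021 overlapping windows on opposite strands the sequences were reverse complements. Shares have 95% Clopper-Pearson intervals. No genome sequence was used, so no sequence of a region itself was read.

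Named were the 12 intervals with most regions, the 10 clusters with most covered bases on average, the 8 with most in 6T-CEM and none in Jurkat, the 8 with most in the lower Jurkat library and none in 6T-CEM, the 5 of highest width times fold in each list, the 8 regions of highest lowest fold over the libraries, the 5 widest regions and the 5 farthest shared ones. Some clusters that this rule names are not reported here. The members, gene lists and tests were chosen with earlier results of these data known, and the set of regions over 1 kb from gene ends after seeing the data. On simulated data, 4000 of 4000 regions were classed correctly, and distances of 1005 chromosome 21 regions were recomputed with 0 differences. Software was pandas 2.3.3, SciPy 1.17.1, NumPy 2.4.6 and matplotlib 3.10.9 under Python 3.11.15.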

Additional observations from a re-analysis of the deposited data

Results flagged for a closer look

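Peaks on contigs outside the main chromosomes enter no comparison above. An alternate contig of chromosome 14 held 150 peaks in 6T-CEM, against 39 in Jurkat replicate 1 and 55 in replicate 2. These values were singled out because they are signal in data left out of the comparisons, and the lists hold no control peaks to set beside them. The IGH interval beyond TMEM121 held similar numbers, 148 peaks in 6T-CEM, against 43 and 54 in Jurkat replicates 1 and 2. Whether the contig and that interval share sequence or reads was not tested.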

How the results depend on the processing

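Of 111 recomputed values under 13 settings, 76 stayed within their limits and 35 moved. Limits were a set factor for counts, the Clopper-Pearson interval for shares and the quartiles for folds. For the median log2 ratio before centring, the limit was the SD of Jurkat replicate 1 over 2 across intervals. Only this ratio could change direction, and it did not. Its limit was wide: a fall from 0.667 to 0.225 with 2000 bp added stayed within it. The number of desert regions was 4578 at 50 kb from genes, 1527 at 200 kb, 1635 at equal list length and 1551 outside non-coding gene bodies. Their share of all union regions was 9.24% at 50 kb, 3.08% at 200 kb and 3.13% outside non-coding bodies. It was 5.59% when antigen receptor segments also counted as genes and 5.63% without the interval beyond TMEM121 (a setting chosen after seeing the data). The share with peaks of all libraries was 12.5% at equal list length, 12% at 200 kb and 7.93% outside non-coding bodies. That of 6T-CEM alone was 41.5% for peaks with −log10 q of 5 or more, 31.6% at equal list length and 39.2% at 200 kb. That of both Jurkat libraries alone was 2.42% and 7.09% under the first pair of these settings. Jurkat replicate 1 desert peaks overlapped replicate 2 in 49.4% at equal list length, and overlapped 6T-CEM in 60.9% at the stricter q, 44.3% at equal length and 49.4% outside non-coding bodies. Desert intervals above both Jurkat libraries numbered 442 at 50 kb and 137 at 200 kb, and those below both 80 and 21. The median centred log2 ratio over desert intervals was 0.05 with 2000 bp added and 0.42 at equal list length. The median fold of replicate 2 desert peaks was 5.97 at equal list length.

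Leaving out either Jurkat library turned the classes into those of a pair of lists. Over these settings the desert share of all regions ranged from 5.33% to 5.87%, the share with peaks of all remaining libraries from 17.5% to 21.7%, that of 6T-CEM alone from 41.2% to 66.6%, that of Jurkat alone from 16% to 37.2% and the number of intervals below Jurkat from 73 to 160. Fewer lists must be matched in these settings.

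No paired analysis was possible because 6T-CEM had 1 library and no test was run. The lists differ in length and give no read counts outside peaks, and the part of depth in a missing peak was not tested. With 1 library, 6T-CEM has no spread to set a difference between the lines against.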
